A study of Mus musculus with 72 samples.

Results

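The genes described here are 10 mouse genes of MHC class II antigen presentation, taken from a list of named symbols and found by their Ensembl identifiers in all 6 tissue tables: Ciita, H2-Aa, H2-Ab1, H2-Eb1, Cd74, H2-DMa, H2-DMb1, H2-Oa, H2-Ob and Ctss. They are 10 of the 36047 mouse gene identifiers in each table. All the mice carried the EGFR DEL19 genotype, a mutant human EGFR transgene that gives lung tumours, and all had received doxycycline for 25 days, so the controls carry the transgene and the tumours as well. A genetic circuit was then given intravenously at 10 mg/kg every 2 days for 7 injections, and 6 tissues (thymus, spleen, kidney, liver, lung and tumour) were taken at day 14. There were 3 circuits with 4 RNA-seq libraries each per tissue, 72 libraries in all: CMV-scrR, the control circuit, CMV-siRE, which encodes an EGFR siRNA, and CMV-GE11-siRE, which adds the EGFR-binding peptide GE11 to the vesicles that carry the siRNA. The labels give no age or sex, no driver of the transgene and no word on whether each library is a separate mouse, so the p-values below measure the spread between these libraries, which may be technical.

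MHC class II molecules display peptides from proteins taken up by a cell to CD4+ T cells. H2-Aa and H2-Ab1 encode the 2 chains of I-A, and H2-Eb1 encodes the beta chain of I-E. Cd74, the invariant chain, fills the peptide groove during transport. Cathepsin S, encoded by Ctss, trims Cd74 down to a last fragment, H2-DM (H2-DMa and H2-DMb1) exchanges that fragment for peptide, and H2-O (H2-Oa and H2-Ob) restrains H2-DM, chiefly in B cells. Ciita is the transactivator that switches most of these genes on, constitutively in B cells and dendritic cells and after interferon gamma in macrophages, endothelium and many epithelia. It binds no DNA by itself and is held at the promoters by factors bound to a pair of short elements, the X box (RFX) and the Y box (NF-Y).

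Of the 10 members, 7 matched an entry in the RefSeq promoter windows of GRCm38.p6 (all but Ciita, H2-Ab1 and Cd74). The 250 bases before each start were searched on both strands for an X core, GNAAC, followed 25 to 40 bases later (start to start) by a Y core, TGATTGG. The spacing was set after these windows had been seen. The pair was present in H2-Aa, H2-Eb1, H2-Ob, H2-DMb1 and H2-Oa, 5 of the 7, and in 0.362% (119 of 32851) of all promoter windows of that length. Alone, the X core was in 79.6% and the Y core in 7.23% of all windows. Neither H2-DMa (2 listed starts) nor Ctss held the pair. The stretches of 3 members are shown because they place an I-A gene, an I-E gene and an H2-O gene, whose values part from each other below, beside the same pair of elements, with the X and Y cores in capitals:
H2-Aa: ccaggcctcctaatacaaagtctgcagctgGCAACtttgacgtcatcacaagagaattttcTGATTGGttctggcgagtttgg
H2-Eb1: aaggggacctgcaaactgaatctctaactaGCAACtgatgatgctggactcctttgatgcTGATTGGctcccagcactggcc
H2-Ob: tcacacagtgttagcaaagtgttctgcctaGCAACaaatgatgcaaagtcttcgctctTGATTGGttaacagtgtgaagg
They lie at chr17:34287852-34287934 on the minus strand (H2-Aa), chr17:34305746-34305827 on the plus strand (H2-Eb1) and chr17:34238788-34238867 on the plus strand (H2-Ob). All 3 carry GCAAC as the X core, with the Y core starting 31, 30 and 28 bases after it. A match of letters describes the sequence and does not show that a factor sits there.

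In GRCm38 with the GENCODE M21 annotation, 7 members lie within the MHC on chromosome 17: H2-Oa (34092340 to 34095234), H2-DMa (34119541 to 34139101), H2-DMb1 (34153072 to 34160230), H2-Ob (34238903 to 34254414), H2-Ab1 (34257689 to 34269419), H2-Aa (34282744 to 34287823) and H2-Eb1 (34305867 to 34316674). Ciita lies on chromosome 16 (10480059 to 10528418), Ctss on chromosome 3 (95526786 to 95556403) and Cd74 on chromosome 18. The library kit does not mark strand, so reads of H2-Eb1 and its antisense gene Gm20513, of H2-Oa and BC051537, of H2-DMa and Brd2 and of Ciita and Dexi could not be told apart where they overlap, and reads of H2-DMb1 may be shared with its near copy H2-DMb2.

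Library totals of the normalised counts (M, 1e6) were 16.9 to 21.38 M in the 60 organ libraries and 5.87 to 43.81 M in the tumours, where mitochondrial genes took 8.04% to 73.1% of the total. The targeted human EGFR transcript in the tumours had normalised counts of 2767, 1992, 4025 and 3215 with CMV-scrR, 890.01, 452, 718 and 1324 with CMV-siRE, and 91.2, 79.8, 39.2 and 132 with CMV-GE11-siRE. Tissue markers were present in all 12 libraries of their tissue, at least 992092 for Alb in liver, 41831 for Umod in kidney, 28229 for Rag1 in thymus, 191896 for Sftpc in lung and 35101 for Sftpc in tumour. Some genes marked all or some of the tumours off from organs. The Y-linked Ddx3y was at 330 to 422 in 4 tumours (CMV-scrR 2, CMV-siRE 2 and 4 and CMV-GE11-siRE 2). It was at or under 9.59 in the other 8 tumours and at or under 22.9 in all organ libraries. H2-Ea-ps, the I-E alpha gene that the b haplotype does not transcribe, was at 7.96 to 1978 in the tumours and at or under 4.63 in the organs. These genes were singled out after their values were seen. In lung, liver and spleen the CMV-scrR libraries 1 and 3 had the highest Igtp, an interferon-induced GTPase, of the 12 (10414 and 10780.2 in lung, 12098 and 12362 in liver, 5325 and 4719 in spleen), and results there are also given without them. Since high interferon-gene levels singled these 2 libraries out, smaller differences of such genes without them follow from the choice.

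In the control libraries the members were highest in spleen and, except for H2-Oa, next in lung. Cd74 had 5033 ± 734 CPM in spleen (SD, n = 4), 2389 ± 247 in lung, 1095 ± 108 in thymus, 870.3 ± 438 in kidney, 520.3 ± 155 in liver and 298 ± 147 in tumour. CPM here is the normalised count per 1e6 of the library's total, a level on a linear scale. Spleen, lung and thymus did not overlap for Cd74, whereas the kidney range reached into those of thymus and liver. H2-Aa, H2-Ab1, H2-Eb1, H2-DMa and Ciita had the same first 4 places: spleen, lung, thymus, kidney. The tumour CPM values are lower for any gene where the mitochondrial share of the library is high, and tables of different tissues were normalised separately, so this order is a description. Per kilobase of exon, Cd74 was the highest of the 10 in every tissue, from 178 CPM per kb in tumour to 2997 in spleen.

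The chains of H2-O had another distribution. H2-Ob was at 428 ± 91.1 CPM in spleen, 34.9 ± 3.72 in lung, 24.9 ± 2.28 in thymus and 3.46 ± 1.87 in liver. H2-Oa was at 91.3 ± 16.9 CPM in spleen and 22.4 ± 1.63 in thymus, above the 5.42 ± 1.09 of lung. In liver, kidney and tumour H2-Oa stood at 0.708, 0.552 and 0.587 CPM with ranges that overlapped. These are means of 14.4, 10.2 and 16 normalised counts. Ctss was at 462 ± 69.9 CPM in spleen, 246 ± 43.4 in lung and 144 ± 23.1 in liver, and kidney was its lowest tissue at 35.2 ± 6.44. H2-DMb1 differed from its partner H2-DMa in its place in kidney, at 75.7 ± 36.2 CPM against 29.7 ± 5.46 in thymus, while H2-DMa was at 43.6 ± 21.5 and 45.6 ± 3.59.

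**Figure D1:**
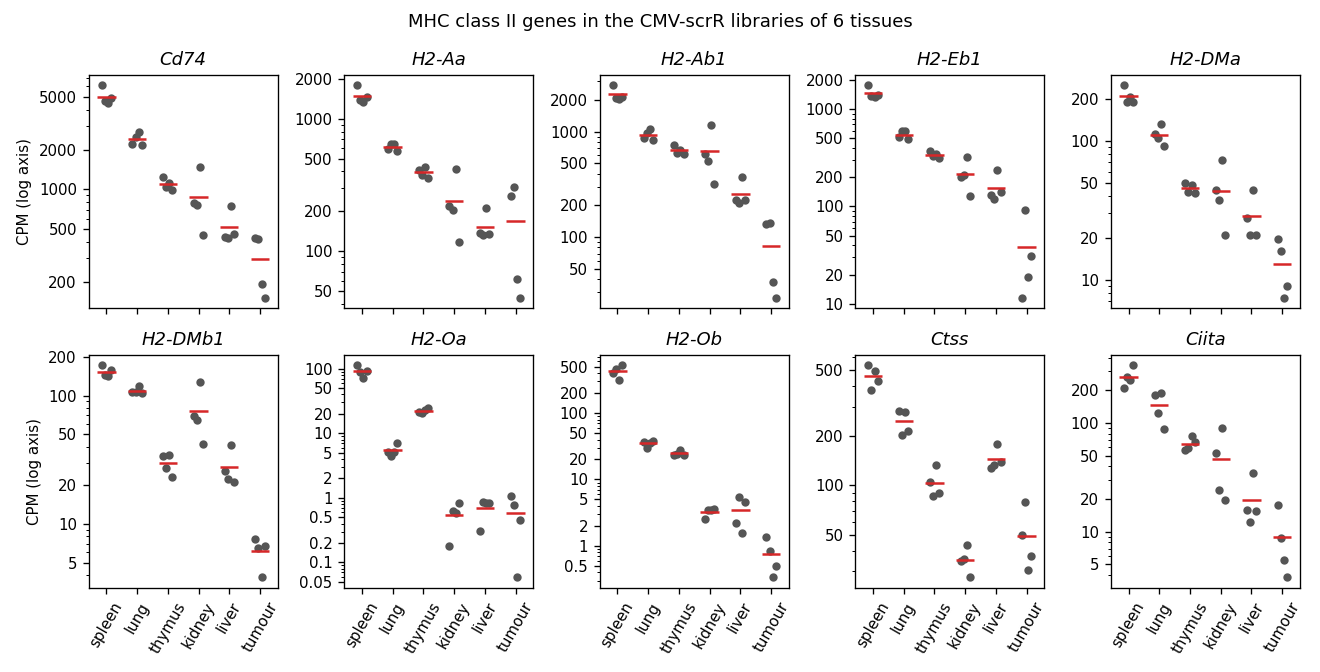
CPM (log axis) of each member in the 4 CMV-scrR libraries of each tissue, with a red bar at the mean. Spleen is highest for all 10 genes, and the 4 kidney libraries spread widely for the genes of the Cd74 group.

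Differences between circuits were fitted with limma on log2(value + 1) over the 12 libraries of each tissue, for every gene that reached 10 in 4 or more of them. Benjamini-Hochberg adjustment covered all genes tested, with 0.05 as the threshold, and differences are given on that log2 scale with their standard error. All 10 members were tested in every tissue. Both active circuits were compared with the same 4 control libraries, so the comparisons are not independent. In whole tissue, fewer cells of a type and less RNA per cell cannot be told apart.

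**Figure D2:**
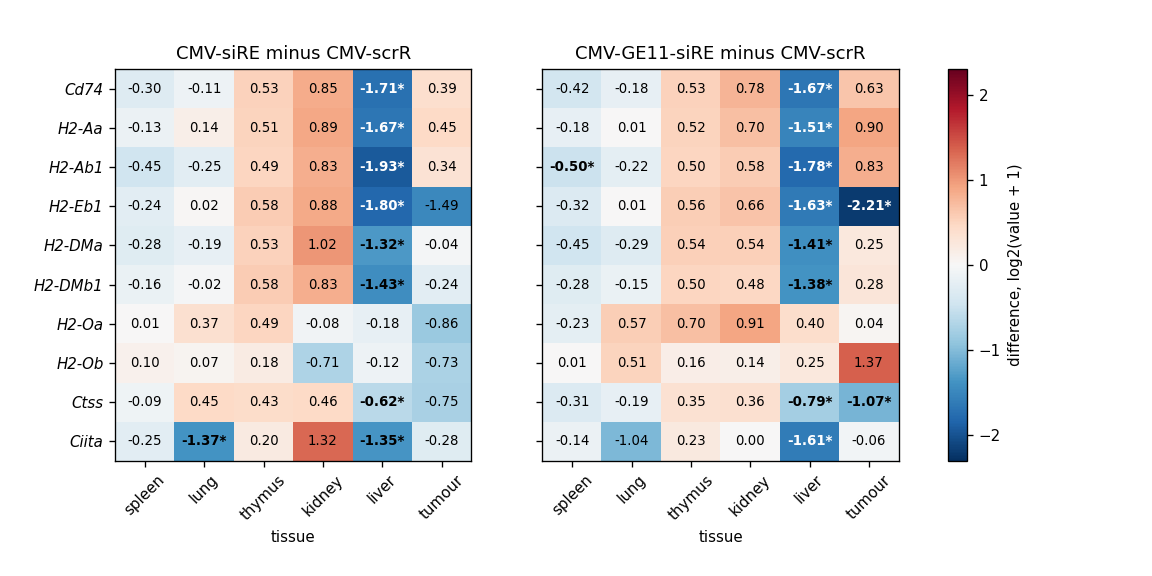
Fitted differences from CMV-scrR on the log2(value + 1) scale for each member (rows) and tissue (columns), CMV-siRE on the left and CMV-GE11-siRE on the right. Bold values with an asterisk passed the adjusted threshold: 8 members in liver with each circuit, 1 in lung with CMV-siRE, and 1 in spleen and 2 in tumour with CMV-GE11-siRE.

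In liver, the class II genes were lower with both active circuits. Of the 10 members, 8 fell with CMV-siRE and 8, all but H2-Oa and H2-Ob each time, with CMV-GE11-siRE, against 1.97% and 2.04% of the 14484 genes tested that fell. The median difference of the members was -1.39 with CMV-siRE and, for CMV-GE11-siRE, -1.46, and that of all genes was 0 in both. The 8 members also did not overlap with the controls, where 6.59% and 5.68% of all genes were lower without overlap. Between CMV-GE11-siRE and CMV-siRE no member passed limma's test, none had an unadjusted p under 0.05, and 0.0069% of all genes passed.

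Cd74 had normalised counts of 8914, 9053, 15079.8 and 9214 in the control livers, 3763, 2768, 2752 and 3422 with CMV-siRE and 2961, 2928, 2998 and 4158 with CMV-GE11-siRE. Every library of the active circuits was below every control library. The difference was -1.71 ± 0.17 with CMV-siRE (limma, adjusted p = 0.000317) and -1.67 ± 0.17 with CMV-GE11-siRE (adjusted p = 0.000488). The I-A and I-E chains moved with it. H2-Aa was at 2769.9, 2810.2, 4218 and 2668 in the controls, 1117, 839, 872 and 1031 with CMV-siRE and 1021, 954, 1003 and 1367 with CMV-GE11-siRE. H2-Ab1, the I-A beta chain, was at 4587, 4481, 7469.6 and 4465 in the controls, 1685, 1129.7, 1076 and 1571 with CMV-siRE and 1306, 1200.3, 1599 and 1953 with CMV-GE11-siRE. H2-Ab1 had the largest difference of the members, -1.93 ± 0.20 and -1.78 ± 0.20. H2-Eb1 fell by 1.80 and 1.63, and H2-Aa fell by 1.67 and 1.51. Control library 3 was the highest for all of these genes, and the other 3 controls still lay above all 8 treated libraries.

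H2-DM fell by a smaller amount. H2-DMa was at 571, 441, 888 and 419 in the control livers, 271, 174, 206 and 242 with CMV-siRE and 156, 219, 182 and 301 with CMV-GE11-siRE. The differences were -1.32 ± 0.25 (adjusted p = 0.0135) and -1.41 ± 0.25 (adjusted p = 0.00855). H2-DMb1 fell by 1.43 and 1.38. Ctss fell by 0.62 with CMV-siRE (adjusted p = 0.0264) and 0.79 with CMV-GE11-siRE (adjusted p = 0.00869), from 2929 ± 438 to 1911 ± 293 and 1699 ± 282 (SD, n = 4). The transactivator Ciita had 323, 259, 689 and 310.2 normalised counts in the controls, 197, 114, 108 and 170.5 with CMV-siRE and 92, 91, 129 and 185 with CMV-GE11-siRE. The transactivator fell by 1.35 (adjusted p = 0.0293) and by 1.61 (adjusted p = 0.0139), and the groups did not overlap.

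The H2-O chains stood apart from this. H2-Oa was at 6, 18, 17 and 17 in the control livers, 26, 3, 17 and 12 with CMV-siRE and 16, 19, 21 and 17 with CMV-GE11-siRE, with differences of -0.18 ± 0.51 and 0.40 ± 0.51. H2-Ob was at 45, 116, 32 and 91 in the controls, 141, 45, 49 and 35 with CMV-siRE and 65, 86, 53 and 105 with CMV-GE11-siRE, with differences of -0.12 ± 0.46 and 0.25 ± 0.46. Neither passed the test, the groups overlapped, and with standard errors this wide a change of the size seen for Ctss was not detectable.

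**Figure D3:**
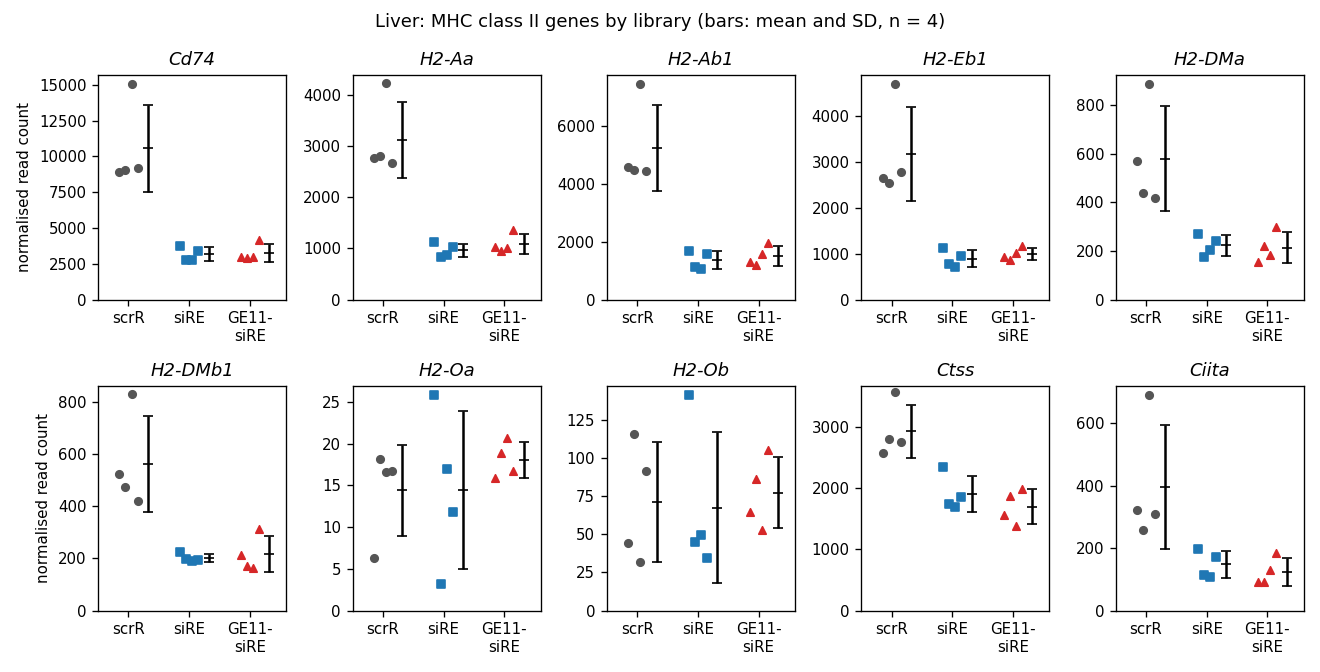
Normalised counts in the 12 liver libraries for each member, with the axis from 0 and the mean and SD of each group of 4 beside the points. For 8 genes all treated libraries lie below all controls, and for H2-Oa and H2-Ob the groups overlap.

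Without control libraries 1 and 3, an alternative added after the data were seen, 5 members fell with CMV-siRE and 4 did so with CMV-GE11-siRE. Calls of other genes were lost too. Of 60 named differences in lung, liver and spleen, members included, 20 lost their call in this way and 0 gained one. The smaller counts therefore cannot be read as particular to the members. H2-Aa, H2-Ab1, H2-Eb1 and Cd74 passed with both circuits, at -1.35 to -1.74, and H2-DMb1 with CMV-siRE at -1.15. Ciita (-0.99 and -1.25), H2-DMa (-0.96 and -1.04) and Ctss (-0.55 and -0.73) no longer passed. For Ctss and Ciita with CMV-siRE the call also depended on single libraries: Ctss was lost without control library 3 or treated library 2, 3 or 4, with adjusted p up to 0.0875, and Ciita without control library 1 or 3 or treated library 2 or 3, with adjusted p up to 0.0941.

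Genes of the pathway around the members did not follow in liver. Of 19 other genes found in the tables (proteases, costimulators, the promoter factors Rfx5, Rfxap, Rfxank and the NF-Y subunits), 0 passed limma's test with either circuit, with medians of -0.05 and 0. Of 21 tested genes of the interferon gamma response and MHC class I loading, 8 fell and 1 rose with CMV-siRE, and 11 fell and 1 rose with CMV-GE11-siRE. Igtp fell by 1.79 and 2.05. Psmb9, an immunoproteasome subunit, fell by 1.16 and 1.31, Tap1, a peptide transporter subunit, fell by 1.05 and 1.23, and Irgm1, another interferon-induced GTPase, fell by 1.32 with CMV-GE11-siRE. The exception was Cxcl9, an interferon-induced chemokine, with 2371, 1257, 2594 and 1338 in the controls, 6191, 20601, 17965 and 11957 with CMV-siRE and 5136, 8362, 7162 and 8562 with CMV-GE11-siRE. It rose by 2.84 ± 0.34 (adjusted p = 0.00104) and 2.00 ± 0.34 (adjusted p = 0.00778). Without control libraries 1 and 3, Cxcl9 still passed, at 3.31 and 2.46. Igtp (-1.29 and -1.56), Psmb9 (-0.81 and -0.96), Tap1 (-0.70 and -0.88) and Irgm1 (-0.85 with CMV-GE11-siRE) then did not pass.

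Few markers of the cells that carry class II passed. Of 12 B cell markers and 9 tested dendritic cell markers in liver, 0 passed in either comparison, and of 12 macrophage markers only C1qa did, lower by 0.58 and 0.59. The medians were below 0 all the same: -0.32 with both circuits for macrophage markers, -0.28 and -0.32 for dendritic cell markers and -0.12 and -0.14 for B cell markers. Summed over the list, macrophage markers were at 995 to 2025 CPM in the controls, 846 to 1810 with CMV-siRE and 861 to 1306 with CMV-GE11-siRE. The dendritic cell sums were 30.03 to 55.1, 29.03 to 38.3 and 24.6 to 35.5 CPM, and the B cell sums 33.7 to 49.7, 26.03 to 62.9 and 35.9 to 38.2 CPM. No marker of these 3 lists was at 0 in all libraries, and the part of these cells in the result was not tested.

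In lung, Ciita passed as lower with CMV-siRE, and no other member passed with either active circuit. Whether the Ciita difference differs from those of the genes it acts on was not tested. Ciita had 3713, 2531, 3963 and 1739.8 normalised counts in the controls, 1062, 929, 1438 and 1016 with CMV-siRE and 1418, 1341, 1653 and 1137 with CMV-GE11-siRE. Every treated library lay below every control, as for 7.13% and 2.48% of all genes. The difference was -1.37 ± 0.22 with CMV-siRE (limma, adjusted p = 0.0116), the only member called, where 0.928% of all genes were lower. With CMV-GE11-siRE it was -1.04 ± 0.22 (adjusted p = 0.124), where 0% of all genes passed; 1 member was lower and 2 were higher there at an unadjusted p under 0.05. Without control libraries 1 and 3 Ciita differed by -0.94 with CMV-siRE (adjusted p = 0.0651), and without control library 4 it passed with CMV-GE11-siRE too (adjusted p = 0.0149).

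Cd74 in lung was at 44769, 50044, 56737 and 43191 in the controls, 39353, 51978, 50111 and 39377 with CMV-siRE and 42937, 45455, 40268 and 42743 with CMV-GE11-siRE. The groups overlapped, with differences of -0.11 ± 0.13 and -0.18 ± 0.13. H2-Ab1 differed by -0.25 ± 0.13 and -0.22 ± 0.13, and H2-Aa, H2-Eb1, H2-DMa and H2-DMb1 by no more than 0.29 in either direction. Over the 12 lung libraries Cd74 spanned 1.44-fold, against 5.48-fold in liver.

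H2-Ob and Ctss were the other members with separate groups or opposite signs in lung. H2-Ob was at 735, 598, 752 and 752 in the controls and 1093, 992, 1082 and 863 with CMV-GE11-siRE, with no overlap (2.25% of all genes were higher in that way) and a difference of 0.51 ± 0.16 that did not pass (adjusted p = 0.372). Ctss was at 5516, 7395, 8122 and 6275 with CMV-siRE and at 3791, 4902, 3368 and 5631 with CMV-GE11-siRE. Its difference between these circuits was -0.64 (adjusted p = 0.327), with 0 members and 0.0619% of all genes passing and 1 member higher and 1 lower at an unadjusted p under 0.05, and from the control it was 0.45 ± 0.18 with CMV-siRE (adjusted p = 0.207).

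Beside Ciita in lung, 9 of 22 interferon and class I genes fell with CMV-siRE and 0 passed with CMV-GE11-siRE. Igtp fell by 2.08, Irgm1 by 1.37 and Tap1 by 1.13 with CMV-siRE. Without control libraries 1 and 3 these 3 still passed, at -1.36, -0.79 and -0.69. None of the 19 other class II pathway genes and none of the B cell or dendritic cell markers passed in either comparison. Of 12 macrophage markers, 4 rose with CMV-siRE, namely Adgre1 and the 3 C1q genes, and their sum was 664 to 876 CPM in the controls, 865 to 1059 with CMV-siRE and 605 to 717 with CMV-GE11-siRE. Their part in the lung values was not tested.

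**Figure D4:**
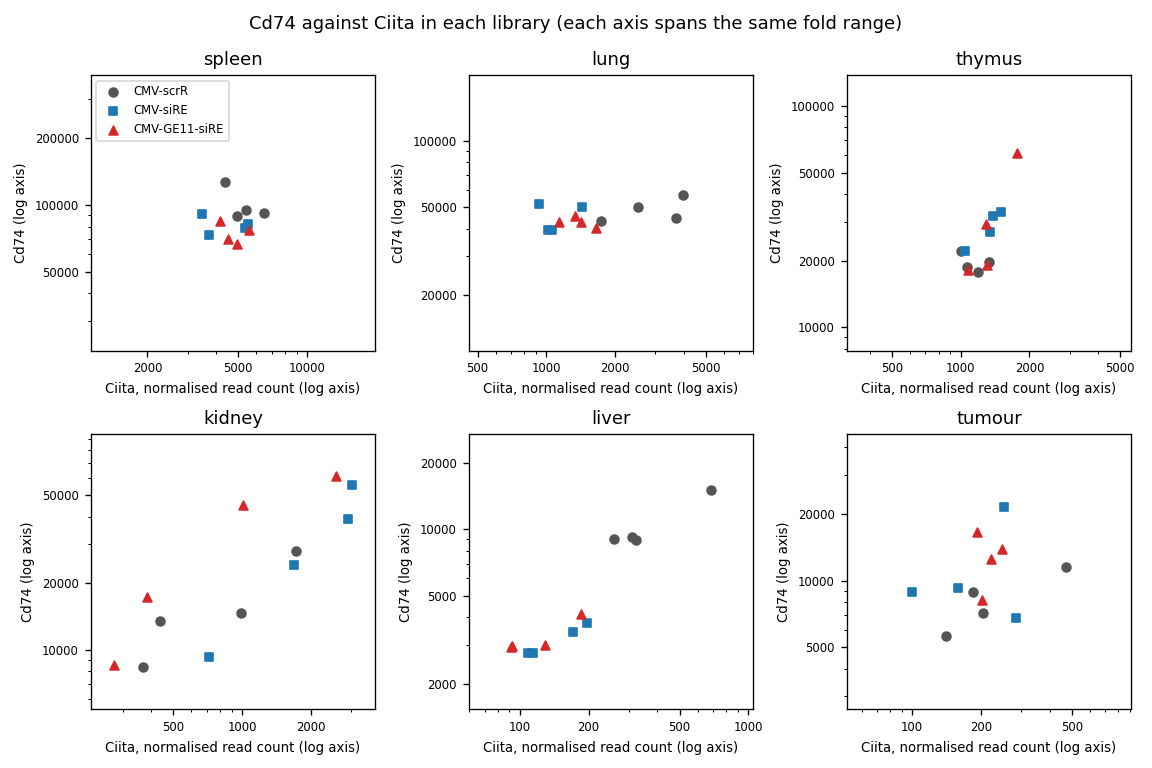
Cd74 (vertical, log axis) against Ciita (horizontal, log axis) in normalised counts, 1 point per library and 1 panel per tissue, with every axis spanning the same fold range. In liver and kidney the libraries low in Ciita are low in Cd74. In lung the points spread along the Ciita axis at nearly level Cd74.

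In spleen, the tissue with the most class II RNA, the differences were small. H2-Ab1 was at 57486, 42174, 40653 and 40747 in the controls, 32322, 29324, 35122 and 34280.5 with CMV-siRE and 29530.2, 35479, 28720.01 and 33292 with CMV-GE11-siRE. All treated libraries lay below all controls, with CMV-siRE as for 7.06% of all genes. With CMV-GE11-siRE, H2-Ab1 fell by 0.50 (limma, adjusted p = 0.0388), the only member called, where 3.47% of all genes were lower. With CMV-siRE its difference was -0.45 ± 0.13 (adjusted p = 0.0592), no member was called where 4.61% of all genes were, and 2 members were lower at an unadjusted p under 0.05. The CMV-GE11-siRE call was lost in the fit of only the 8 libraries compared, with no filter on low values, without control library 1 or 3, alone or together, and without treated library 1, 3 or 4, with adjusted p up to 0.184. Without treated library 2, H2-DMa passed too (adjusted p = 0.0409).

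With CMV-GE11-siRE, H2-Ab1, H2-Eb1, Cd74 and H2-DMa did not overlap with the controls and were lower, 4 of 10 members against 7.37% of all genes. Cd74 was at 127674, 94739, 89024 and 92382 in the controls and at 70588, 84489, 66812 and 76868 with CMV-GE11-siRE, a difference of -0.42 ± 0.14 (adjusted p = 0.079). H2-DMa differed by -0.45 ± 0.13 (adjusted p = 0.0604) and H2-Eb1 by -0.32 ± 0.12 (adjusted p = 0.113). Between the active circuits 0 members and 0.112% of all genes passed, and 0 members had an unadjusted p under 0.05. H2-Aa, the partner of H2-Ab1, overlapped between the groups with both circuits. Ciita was at 4366, 5422, 4934 and 6473 in the controls, 5324, 3740.1, 5517 and 3467 with CMV-siRE and 4491, 4166, 4934 and 5565 with CMV-GE11-siRE, with overlap and differences of -0.25 ± 0.16 and -0.14 ± 0.16. Ciita did not pass here, and whether its difference differs between spleen, lung and liver was not tested.

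Interferon and class I genes fell in spleen, 10 of 22 with CMV-siRE and 12 of 22 with CMV-GE11-siRE, among them Igtp (by 1.45 and 1.32), Tapbp, the class I loading chaperone tapasin (by 0.72 and 0.75), Irgm1 (by 1.14 with CMV-siRE), Irf1, an interferon-induced transcription factor (by 0.87 with CMV-GE11-siRE), and Socs1, a feedback inhibitor (by 1.55 with CMV-GE11-siRE). Without control libraries 1 and 3, Igtp (-0.92 and -0.79), Tapbp (-0.50 and -0.53) and Irgm1 (-0.73) still passed, and Irf1 (-0.52) and Socs1 (-1.02) did not. Of the 19 other class II pathway genes, only the protease gene Ctsd passed, higher by 0.46 with CMV-siRE (adjusted p = 0.037), a call lost with no filter, in the 8-library fit and without control library 2 or 4 or treated library 1, 2 or 4 (adjusted p up to 0.101). Marker lists moved in spleen too: 6 of 10 dendritic cell markers fell with CMV-siRE and 1 did with CMV-GE11-siRE, while 4 of 12 macrophage markers rose with each. The dendritic cell sum was 332 to 448 CPM in the controls, 274 to 315 with CMV-siRE and 318 to 376 with CMV-GE11-siRE. The macrophage sum was 1157 to 2106, 2033 to 2369 and 1513 to 2298 CPM, and the B cell sum 3679 to 6035, 5066 to 6517 and 4725 to 5207 CPM. The part of these cells in the members' values was not tested.

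In kidney, the libraries differed more from each other than the circuits did. Cd74 was at 14635, 13548, 28012 and 8349 in the controls, 55659, 38835, 9260.4 and 24275 with CMV-siRE and 17250.4, 45244, 8557 and 60991 with CMV-GE11-siRE, a 7.31-fold range with high and low libraries in every group. Ciita was at 992, 437, 1716 and 368 in the controls, 3032, 2921, 717 and 1691 with CMV-siRE and 382, 1009.8, 274 and 2583 with CMV-GE11-siRE, an 11.05-fold range. In each of the 3 comparisons 0 members passed limma's test, 0 had an unadjusted p under 0.05, and 0% of all genes passed. For Ciita the difference was 1.32 ± 0.71 with CMV-siRE (adjusted p = 0.549), and for Cd74 it was 0.85 ± 0.65 and 0.78 ± 0.65.

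H2-Aa stayed closest to a fixed share of Cd74, at 24% to 29.7% in the 12 kidneys. The shares of other members varied more: 20.1% to 32.6% for H2-Eb1, 50.3% to 84.6% for H2-Ab1, 3.44% to 6.49% for H2-DMa, 5.82% to 12.5% for H2-DMb1, 2.22% to 7.75% for Ciita and 1.11% to 6.73% for Ctss. H2-Ab1 ranged 9.54-fold, H2-DMa 8.19-fold and H2-DMb1 6.28-fold, and each was highest in CMV-GE11-siRE library 4. That library stood apart in other ways, with a mitochondrial share of 3.69% against 9.6% to 12.7% in the other 11, and a Rag1 count of 136 against 8.78 or less. H2-Oa was also highest there, at 26.5, but it was at 5 and 4.5 in CMV-siRE libraries 2 and 4, which were high in Cd74. H2-Ob was at 59, 69, 20.2 and 19.7 with CMV-siRE and at 169, 43, 93 and 27 with CMV-GE11-siRE, so that its highest libraries were 2 that were low in Cd74. Ctss ranged 3.26-fold.

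**Figure D5:**
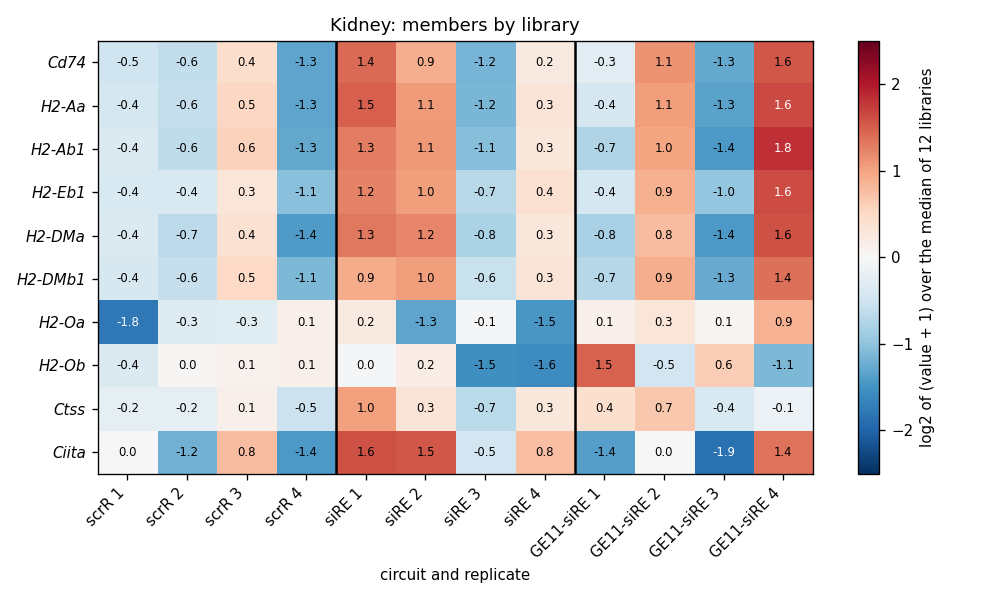
Each cell is the log2 of a member's value + 1 over its median across the 12 kidney libraries, with rows for genes and columns for libraries, and black lines between circuits. Of the libraries, CMV-siRE 1, 2 and 4, CMV-GE11-siRE 2 and 4 and CMV-scrR 3 are above the median for the first 6 genes, and H2-Oa and H2-Ob show another pattern.

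H2-DMb2, the near copy of H2-DMb1, was at 394, 318, 1399 and 137 in the controls, 3713, 3009, 160.4 and 1428 with CMV-siRE and 294, 2166, 139 and 4895 with CMV-GE11-siRE. Markers of cell types differed in where they peaked. In CMV-GE11-siRE library 4, the highest in Cd74, the macrophage marker Csf1r was at 1524 against 1029.9 or less in the other 11, while the macrophage marker Adgre1 was at 267 and the B cell marker Ms4a1 at 5.2. In CMV-GE11-siRE library 1, which was low in Cd74, Adgre1 was at 707 and Ms4a1 at 68.2, the highest of the 12 for both. The summed macrophage markers were 201 to 254 CPM in the controls, 179 to 359.9 with CMV-siRE and 228 to 328 with CMV-GE11-siRE, and the dendritic cell sums 32.1 to 48.01, 28.8 to 68.2 and 44.9 to 49.5 CPM. The part of these cells, and of the mitochondrial share, in the kidney values was not tested.

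In thymus, the members leaned upward with both circuits and none passed. The fitted differences were 0.18 to 0.58 with CMV-siRE and 0.16 to 0.70 with CMV-GE11-siRE, all 10 above 0 in each. At an unadjusted p under 0.05, 1 member was higher in each, and 0.00609% and 0% of all genes passed. Between the active circuits 0 members passed limma's test or had an unadjusted p under 0.05, and 0% of all genes passed. Cd74 was at 22144, 18702, 19651 and 17695 in the controls, 26922, 33267, 22100.2 and 31716 with CMV-siRE and 18158, 29296, 19194 and 61225 with CMV-GE11-siRE. The last library was far above the rest. Its mitochondrial share was 0.558%, against 1.64% to 1.92% in the other 11. It was also the highest of the 12 in C1qa (8527) and Foxn1 (1343), a macrophage gene and the master regulator of thymic epithelium, and the lowest in Rag1 (28229), a gene of immature thymocytes. Other genes of the same cells went the other way there. Psmb11, of thymic epithelium, was at 1707 against 1908 to 2443 in the controls. Ptcra, of immature thymocytes, was at 601, the highest of the 12. The part of these cells in the class II values of that library was not tested. The kidney library of the same circuit and number was likewise the highest of its tissue in Cd74 and the lowest in mitochondrial share. The labels do not say whether both came from the same mouse.

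H2-Aa, H2-Eb1, H2-DMb1 and H2-Oa were higher with CMV-siRE without overlap, 4 of 10 members against 6.55% of all genes. H2-Oa was at 381, 374, 409 and 432 in the control thymi, 532, 587, 506 and 629 with CMV-siRE and 475, 612, 468 and 1298 with CMV-GE11-siRE. Its differences were 0.49 ± 0.26 (adjusted p = 0.699) and 0.70 ± 0.26 (adjusted p = 0.472), and it was the one member without overlap with CMV-GE11-siRE, against 3.36% of all genes. H2-Eb1 was at 6685, 5904, 6084 and 5695 in the controls and at 8752, 10070.2, 7378 and 10574 with CMV-siRE (0.58 ± 0.34). In the fit of only the 8 libraries compared, which leaves CMV-GE11-siRE out of the estimate of spread, 7 members were higher with CMV-siRE, as 1673 of the 16421 genes passed there. Without CMV-GE11-siRE library 4 the Cd74 difference between CMV-GE11-siRE and the control was 0.16 in place of 0.53. Of the other class II pathway genes and the interferon and class I genes, 0 passed in thymus.

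In the tumours, 2 of 10 members, H2-Eb1 and Ctss, passed as lower with CMV-GE11-siRE, a share near the 19.8% of all genes that did, and only under the deposited scaling. H2-Eb1 was at 313, 1964, 701 and 1145 in the controls, 251, 1216, 209 and 124 with CMV-siRE and 152, 179, 169.7 and 231 with CMV-GE11-siRE. This I-E chain fell by 2.21 with CMV-GE11-siRE (limma, adjusted p = 0.0121), with no overlap, and its difference with CMV-siRE was -1.49 ± 0.62 (adjusted p = 0.188). Ctss was at 1345, 1683, 1132 and 1369.7 in the controls, 477, 964, 1407 and 678 with CMV-siRE and 705, 756, 457 and 745 with CMV-GE11-siRE. The protease fell by 1.07 with CMV-GE11-siRE (adjusted p = 0.011), and its difference with CMV-siRE was -0.75 ± 0.29 (adjusted p = 0.166). Both were lower without overlap, as were 21.5% of all genes. With CMV-siRE 0 members passed where 0.256% of all genes did, and 2 were lower at an unadjusted p under 0.05. Between the active circuits 0 passed where 0.0214% of all genes did, and 1 was higher at an unadjusted p under 0.05.

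These tumour calls depended on the scaling. When libraries were scaled by their column totals, the all-gene median became 2.11 for CMV-GE11-siRE against CMV-scrR. There 8 members were higher and 0 lower, with Ctss 1.02 higher and H2-Eb1 at -0.12. Of the 14044 genes tested, 11435 passed in either direction there, against 5890 as deposited. Scaling by the total without mitochondrial genes put that median at 0.80, against 0.05 as deposited, with 4 members higher and 0 lower. Of all genes, 6675 passed there in either direction, so these member counts moved with those of all genes. With mitochondrial share in the model 0 members passed. That share was 63.1% to 71.4% in the controls and 8.04% to 37.9% with CMV-GE11-siRE, so the model can hardly tell circuit from share. Of 21 named tumour differences, members included, 10 lost their call in it and 5 changed sign, so the 0 is not particular to the members. Relative to the deposited scaling, H2-Aa was at 7055, 6505, 2293 and 1651 in the controls and at 7342, 6681, 4292 and 10134 with CMV-GE11-siRE, a difference of 0.90 ± 0.46 (adjusted p = 0.13). H2-Ab1 differed by 0.83 ± 0.45 and Cd74 by 0.63 ± 0.36, and both overlapped with the controls.

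A ratio of genes within a library does not depend on the scaling. H2-Eb1 as a share of H2-Aa was 4.44%, 30.2%, 30.6% and 69.3% in the control tumours, 2.73%, 26.0%, 5.11% and 3.57% with CMV-siRE and 2.08%, 2.69%, 3.95% and 2.28% with CMV-GE11-siRE. In the 60 organ libraries it was 75.5% to 122%, so that all 12 tumours lay below all organs. The H2-Ea-ps values that marked the tumours off from the organs were 92.9, 1978, 25.3 and 7.96 in the controls, 128, 47.6, 39.9 and 93.2 with CMV-siRE and 103, 116, 143 and 200.8 with CMV-GE11-siRE. Whether the genotype at the MHC has a part in the H2-Eb1 values was not tested.

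The H2-O genes stood out in 1 tumour. H2-Ob was at 37, 18, 12 and 19 in the controls, 5, 59, 3 and 15 with CMV-siRE and 42, 26, 21 and 326 with CMV-GE11-siRE, and H2-Oa was at 104 in that last library and at 29 or less in the other 11. The B cell marker Ms4a1 was at 309 in the same library and at 35.1 or less in the other 11. The H2-Ob differences were 1.37 ± 0.89 against the control (adjusted p = 0.232) and 2.10 against CMV-siRE (adjusted p = 0.158).

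Among 18 tested genes of the wider class II pathway in tumours, 3 rose and 1 fell with CMV-GE11-siRE, and 0 passed with CMV-siRE. With CMV-GE11-siRE, 5890 of all 14044 genes tested passed in either direction, and 19.8% of all genes as lower. The counts of the wider class II pathway genes do not stand above those shares. Whether the counts of the other lists below differ from those shares was not tested. Ctsh, a lysosomal protease that alveolar type 2 cells use to process surfactant protein, rose by 3.25, H2-DMb2 by 1.80 and the X box factor subunit Rfx5 by 0.85. With the mitochondrial share in the model none of these 3 passed. Without control library 4 or CMV-GE11-siRE library 4, H2-DMb2 did not pass (1.18 and 1.55), and Rfx5 was lost with no filter and without control library 2, 3 or 4 or CMV-GE11-siRE library 1, 3 or 4 (adjusted p up to 0.13). March1, a ubiquitin ligase that removes class II from the surface, fell by 1.51. Of 21 interferon and class I genes, 2 rose (Tap2 by 1.56 and Tapbp by 0.70) and 7 fell, among them Gbp2 by 2.24, Psmb8 by 1.46, Irgm1 by 1.30 and Jak1 by 1.02. Tapbp was lost with no filter and without control library 2, 3 or 4 or any 1 of the CMV-GE11-siRE libraries (adjusted p up to 0.112), and March1, Gbp2, Psmb8, Irgm1 and Jak1 did not pass as lower under any of the other scalings or with the mitochondrial share in the model. Alveolar type 2 markers moved in the same libraries, 7 of 8 higher and 1 lower, with sums of 2342 to 3851 CPM in the controls and 48849 to 94815 with CMV-GE11-siRE. Macrophage markers fell, 5 of 10, although their sum in CPM was 56.2 to 192 in the controls and 163 to 359.8 with CMV-GE11-siRE. Their part in the members' values was not tested.

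How far genes moved together within a tissue was described by the Pearson correlation, over the 12 libraries of each tissue, of log2(value + 1) with the mean of H2-Aa, H2-Ab1, H2-Eb1 and Cd74, averaged over the 6 tissues. These libraries share circuits and depth, so the values are a description without a test. H2-DMa had a mean of 0.91 and H2-DMb1 of 0.88, Ctss 0.61, Ciita 0.56, H2-Oa 0.46 and H2-Ob 0.16. For Ciita the correlation was 0.94 in liver, 0.89 in kidney and 0.80 in thymus, and 0.36 in tumour, 0.31 in lung and 0.05 in spleen. For H2-Oa it was 0.95 in thymus and 0.79 in spleen, and 0.05 in liver and 0.12 in kidney. Of the 12553 genes that could be ranked, those with predicted or clone names and mitochondrial genes were then set aside. Among the rest, the non-member most alike was Unc93b1 (0.81), which carries nucleic acid-sensing Toll-like receptors to endosomes. Next were H2-Q4 (0.80), H2-D1 (0.80), H2-K1 (0.79), H2-Q6 (0.78), H2-T23 (0.78), Psmb9 (0.78) and Bst2 (0.78), of which 5 are MHC class I genes.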

How the data were processed

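RNA-seq was made from 72 libraries, per the labels' protocols from TRIzol total RNA with a TruSeq RNA kit. The authors deposited 1 table of normalised signal per tissue. The submitters' processing notes name DESeq2, and no aligner, counter or build was named in the sources used here. The values are fractional and whole reads could not be recovered: 50.3% to 72.6% of low values were whole multiples (within 0.1) of the library's step. The steps put depth near 12.2 to 20.9 M reads (median 19.2). No other column of values was present (0). All 36047 mouse identifiers matched GENCODE M21.

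Differences were fitted with limma 3.58.1 (R 4.3.3), trend on, 1 mean per circuit, no block, and checked on simulated data. The alternatives were pseudocount 0.1, no filter, only the 8 libraries, a replicate block, other scalings and left-out libraries. Named were all 10 members, up to 4 genes each way per fixed list and comparison by smallest adjusted p, and the 8 genes most alike. The members and lists were chosen with earlier results of these data known.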

Additional observations from a re-analysis of the deposited data

Results flagged for a closer look

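In groups of 4, a library was singled out by its gap to the nearest of the others on log2(value + 1). The gap had to be a larger part of the group's range than Dixon's critical value for 4 values. Chance alone gives this in about 1 in 20 groups. Of 180 groups of a member, tissue and circuit, 13 met this, where chance gives about 9. Members vary together within a library, so the groups are not independent and these counts are not a test. In liver, CMV-scrR library 3 was highest for H2-Aa (4217.9, the others at most 2810.2), H2-Ab1 (7469.6, at most 4587.2), H2-Eb1 (4709.5, at most 2787.3) and Cd74 (15079.8, at most 9214). Also in liver, CMV-GE11-siRE library 4 was highest for Cd74 (4157.6, at most 2998) and CMV-scrR library 1 lowest for H2-Oa (6.2, at least 16.6). In spleen, CMV-scrR library 1 was highest for H2-Ab1 (57485.5, at most 42174.2) and H2-Eb1 (36682.8, at most 27973.6), and CMV-siRE library 4 for Ctss (10425.4, at most 8151.3). In the tumours, CMV-GE11-siRE library 4 was highest for H2-Oa (103.9, at most 6.9) and library 3 lowest for Ctss (457, at least 704.6). CMV-scrR library 2 was lowest in lung for H2-Ob (598.2, at least 734.8), and CMV-siRE library 3 was lowest in thymus for H2-DMa (874, at least 1264.5).

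With CMV-siRE, 3 members had every thymus library above and every liver library below the controls of its tissue: H2-Aa (0.51 and -1.67), H2-Eb1 (0.58 and -1.80) and H2-DMb1 (0.58 and -1.43). The difference between the tissues was not tested.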

How the results depend on the processing

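Over 92 named gene differences, 1243 of 1369 alternative values kept their direction and side of the threshold, 92 lost and 17 gained the call and 17 changed sign, and with pseudocount 0.1 all 92 kept both. Counts of members called moved by tumour scaling. With CMV-GE11-siRE against the control they were 8 by the column total, 4 without mitochondrial genes and 0 with the mitochondrial covariate. Of all 14044 genes tested, 11435, 6675 and 0 passed there, in that order, where 5890 did as deposited. Against CMV-siRE, 8 members and 10826 of all genes passed by the column total, where 3 genes did as deposited. These tumour counts moved with those of all genes and are not particular to the members. Without control libraries 1 and 3, lung with CMV-siRE gave 0, liver 5 and 4, and spleen with CMV-GE11-siRE 0. Spleen with CMV-GE11-siRE also gave 0 with no filter, in the 8-library fit and with the replicate block, and thymus with CMV-siRE gave 7 in the 8-library fit. The cause was not tested.

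Signs changed for CMV-GE11-siRE against CMV-scrR in tumours by the column total for Ctss (1.02), March1 (0.55), Jak1 (1.08), Psmb8 (0.63) and Irgm1 (0.78), and with the mitochondrial covariate for H2-Aa (-0.47), H2-Ab1 (-0.93), Cd74 (-0.93), Ctss (0.16) and Tapbp (-0.38). H2-Eb1 between the active circuits became 0.88 by the column total, and H2-Ob in liver -0.46 without control libraries 1 and 3.

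With single libraries left out, members called ranged from 0 to 1 in tumour with CMV-siRE and in lung with CMV-GE11-siRE, and from 0 to 2 in spleen with CMV-GE11-siRE. Liver H2-Oa with CMV-siRE ranged from -0.54 to 0.35, H2-Ob from -0.54 to 0.18 with CMV-siRE and -0.06 to 0.55 with CMV-GE11-siRE, and kidney Ciita with CMV-GE11-siRE from -0.61 to 0.47.

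The replicate numbers did not pair the libraries: of 12 same-number pairs per tissue, 1 to 2 had a correlation over 0.1. With the replicate block 89 of the 92 gene differences kept their call, and liver Ctss with CMV-siRE (adjusted p = 0.0638), spleen Ctsd with CMV-siRE (0.0947) and spleen H2-Ab1 with CMV-GE11-siRE (0.0914) lost it. Depth limits H2-Oa outside spleen, thymus and lung. Other scalings moved the all-gene median in tumours to 0.48 and 0.18 (CMV-siRE against CMV-scrR) and 1.63 and 0.62 (between the active circuits), and in spleen with CMV-siRE to 0.10 and 0.11.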
